A study of Tupaia belangeri with 15 samples.

Results

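CLUL1 (clusterin-like 1, feature TSDBGID.7437) and CLU (clusterin, feature TSDBGID.14659) were followed across the cell classes of the tree shrew (TS, Tupaia belangeri) retina. They were found by gene symbol and are 2 of 83605 features, each listed once, with no numbered copy and no antisense feature of its own. Nuclei were sequenced from 15 retinas by droplet snRNA-seq, 5 labelled Infancy, 5 Mature and 5 Senile, without any treatment or genetic change. The labels give neither strain nor age, and each library is called here by its stage and number. Senile animals came from another institute than the infant and mature ones, so stage and source cannot be told apart. Nothing in the labels says more of the replicates than that they are separate samples, so p-values measure the spread between these samples.

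Clusterin, also called apolipoprotein J, is a secreted glycoprotein that keeps unfolded proteins soluble outside the cell, binds the terminal complement complex and is taken up through receptors of the LDL receptor family. In the retina it is best known from Müller glia and from deposits of ageing and degeneration. CLUL1 is a relative of clusterin that was first described from dog retina, and in other mammals it has been reported as a gene of cone photoreceptors. No sequence of either TS gene was used here.

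The libraries held 13429873 to 58734300 UMIs (unique molecular identifiers, one for each captured RNA molecule) and 4269 to 9856 barcodes, and 119765 nuclei passed the study's limits on genes and mitochondrial RNA. Of the 118622 distinct barcode sequences, 1793 (1.51%) occurred in more than 1 library. Each nucleus was put in a class only when it passed the marker gate of exactly 1 class, which 48993 nuclei did, while 65466 passed none and 5306 passed more than 1. The gates use neither CLUL1 nor CLU. A rod had to show at least 2 of CNGA1, PDE6A, PDE6B and NR2E3, and because CNGA1 is listed at 0 in every nucleus this was 2 of the last 3. That gave 865 rods, from 2 to 120 per retina, 15163 cones, 9685 bipolar cells (BCs), 614 horizontal cells (HCs), 10732 amacrine cells (ACs), 4800 retinal ganglion cells (RGCs), 4963 Müller cells, 1403 astrocytes and 679 microglia. A retina entered the values of a class from 10 nuclei on, so rods were measured in 14 retinas, all but Senile 1, which had 2 rods. Levels are given as CPM, the UMIs of a gene per 1000000 UMIs of the nuclei of a class in a retina.

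The libraries fall into 2 sets. The matrix headers name Cell Ranger 6.1.2 for 7 libraries labelled polyA RNA, which are the infant retinas 1 to 3, the mature ones 1 and 2, and the senile ones 1 and 2, and Cell Ranger 7.0.1 for the other 8, which are labelled total RNA. Sex is not in the labels. In the study's drawing of the design all 7 libraries of the first set are female, and of the second set Mature 3 and Senile 3 are. The drawing was not checked here, and an earlier account of these data doubts it for many of the animals. The sets are called here the 6.1.2 and the 7.0.1 libraries. The version and the RNA label cannot be told apart, and the drawn sex overlaps with them in 13 of the 15 libraries. The main levels below are given for both sets as well as pooled.

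The rod label held for most of the measured rod genes that the gate did not use. SAG, the arrestin of rods, stood at 3702 ± 854 CPM (SD, n = 14 retinas) in rods and 224 CPM in cones. NRL, the transcription factor that sets rod fate, stood at 331 CPM against 0.808 CPM, and GNAT1, the rod transducin, at 203 CPM against 4.66 CPM. Cone genes were lower in rods, but PDE6C, GNAT2, ARR3, PDE6H and GRK7 are all markers of the cone gate. A nucleus that passed that gate was not counted as a rod, so their direction was largely set by the gating. PDE6C, the cone phosphodiesterase, stood at 19.3 CPM against 865 CPM in cones, and GNAT2, the cone transducin, at 24.2 CPM against 1011 CPM. ARR3 and PDE6H stood at 128 and 86.3 CPM against 5176 and 802 CPM. GRK7, also a cone gate gene, was less far apart, at 121 CPM in rods, 30.3% of which held it, against 428 CPM. Of the rod genes outside the gate, RCVRN and RDH12 were lower in rods, at 343 and 154 CPM against 495 and 204 CPM in cones. PDE6G, RP1 and GUCA1B, which rods are known to use, are listed at 0 in all gated rods. PDE6G and GUCA1B are also at 0 in cones, BCs and Müller cells, and RP1 held 1 UMI in cones and 8 in Müller cells. These genes thus give the rod label no support.

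CLUL1 RNA was among the most abundant RNAs of TS rods and stood at 72.2 CPM or less in every other class of every retina. In infant retinas 1 to 5 rods held 17259, 15230, 17170, 5741 and 4992 CPM. In mature retinas 1 to 5 the level was 15762, 12589, 4265, 4825 and 5748 CPM, and in senile retinas 2 to 5 it was 12765, 8780, 3985 and 4263 CPM. The mean over the 14 retinas was 9527 ± 5316 CPM (SD), and the 3 stages overlapped. Ranked within rods, CLUL1 was between the 2nd and the 10th most abundant of all features of a retina, with a median rank of 3.

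**Figure D1:**
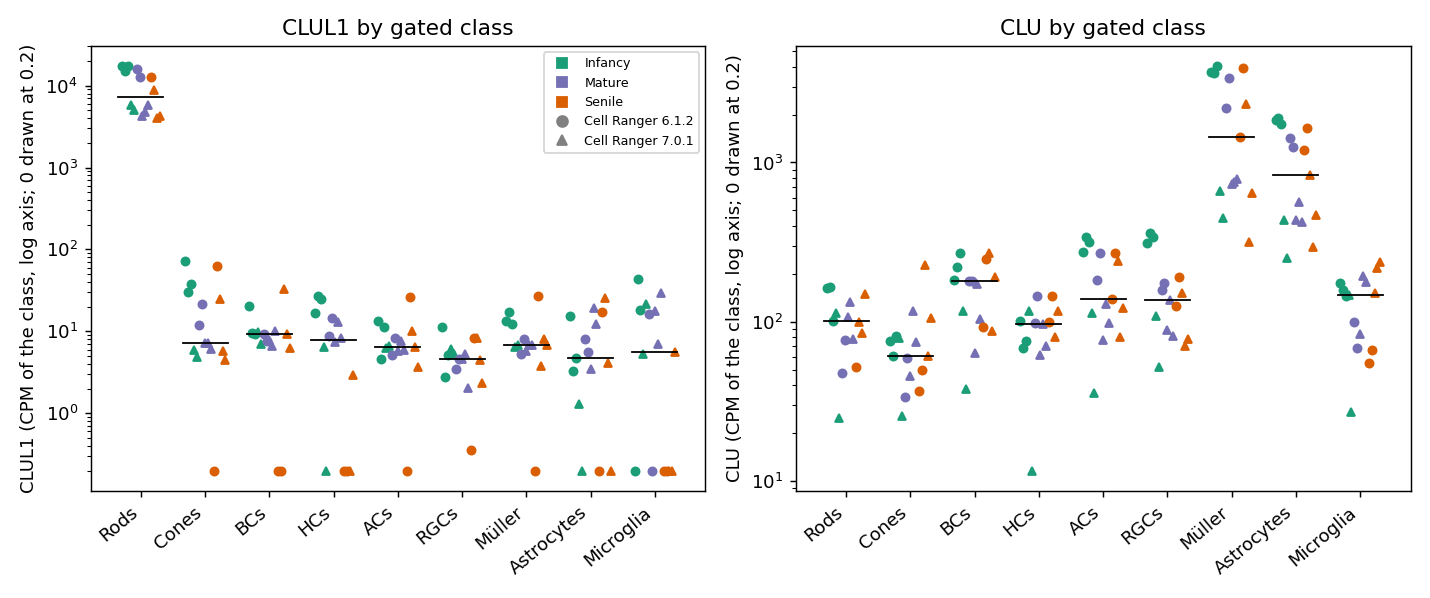
CLUL1 (left) and CLU (right) levels in each retina by cell class, on a logarithmic CPM axis. Each retina is 1 point, coloured by stage, and the marker shape gives the Cell Ranger version of its header. CLUL1 points of rods lie at 3985 CPM or higher and those of all other classes lie far below, whereas CLU is highest in Müller cells (mean 1938 CPM) and astrocytes (mean 982 CPM) and is measured in every class.

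Nearly every rod carried CLUL1 RNA. Over all 865 rods 95.4% held at least 1 CLUL1 UMI, with a median of 20 UMIs per nucleus, a 10th percentile of 7 and a maximum of 103, and 803 rods (92.8%) held 5 or more. In the 14 retinas measured the share with a UMI ran from 89.4% in Mature 4 to 100% in Mature 1 and Senile 2, and neither of the 2 rods of Senile 1 held one. The rods without CLUL1 numbered 40 (4.62%), came from 13 of the 15 retinas, and were not the shallow ones, as their median depth was 3456 UMIs against 2668 in the others. SAG was detected in 7.5% of these 40 nuclei and in 99.8% of the other rods. Nuclei that passed the rod gate without CLUL1 thus mostly lacked SAG as well.

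CLUL1 also followed the number of rod markers in nuclei that passed no other gate. With 0 of the rod markers, 2.5% of 62479 nuclei held a CLUL1 UMI, and with 1 marker 8.34% of 2987 did. Just inside the gate, with 2 markers, the share was 87.1% of 310 nuclei and the level 9220 CPM, and with 3 markers it was 100% of 555 nuclei and 6611 CPM. The step therefore lay between 1 marker, at 244 CPM, and 2 markers. Set by set, the levels with 1, 2 and 3 markers were 1058, 14664 and 16567 CPM in the 6.1.2 libraries and 25.4, 2683 and 5372 CPM in the 7.0.1 libraries. With 2 markers 96.3% of 216 nuclei of the former and 66.0% of 94 nuclei of the latter held a CLUL1 UMI.

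Seen from the side of CLUL1, the nuclei rich in its RNA were mostly rods. Of 1152 nuclei with 5 or more CLUL1 UMIs, 803 (69.7%) were rods and 943 passed the rod gate with or without another gate. A further 147 passed no gate, and of these 91.2% held a SAG UMI and 82.3% held 1 rod marker, against 4.57% and 4.56% of all nuclei without a gate. Cones made up 45 of the 1152 out of 15163 cones. These 45 held SAG in 66.7% and 1 rod marker in 35.6%, against 23.1% and 8.32% of all cones, and their median depth was 6131 UMIs against 3464. Whether they were mixtures of a rod and a cone was not tested. By molecules, 63.9% of the 29952 CLUL1 UMIs lay in rods, 75.1% in all nuclei that passed the rod gate, 15.8% in nuclei without a gate and 3.88% in cones.

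Outside rods CLUL1 stood at means of 4.97 CPM in RGCs to 20.2 CPM in cones. In cones it averaged 20.2 ± 22.2 CPM (SD, n = 15), with a median of 7.3 CPM and a range of 0 to 72.2 CPM. The cones of the 6.1.2 libraries averaged 33.9 ± 26.3 CPM (n = 7), and those of the 7.0.1 libraries 8.28 ± 6.66 CPM (n = 8). The highest were Infancy 1 at 72.2 CPM (236 UMIs) and Senile 2 at 63.6 CPM (224 UMIs), both of the 6.1.2 set. The share of nuclei with a CLUL1 UMI was 3.85% in cones, 3.28% in BCs, 2.93% in HCs and 2.91% in ACs. It was 2.35% in RGCs, 2.32% among Müller cells, 2.21% among microglia and 1.64% among astrocytes. The median depths of these classes, in the same order, were 3464, 3447, 4156, 4164, 5486, 2847, 1489 and 2051 UMIs, against 2731 in rods. All classes that are not photoreceptors had such a low share, and shares at this level are not read as expression. Free RNA itself was not measured.

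Cones came next after rods in the order of levels, without passing the test against the class below them. The order of mean log2(CPM + 1) was rods, cones, Müller cells, BCs, ACs, HCs, astrocytes, RGCs and microglia. Rods exceeded cones by 9.08 ± 0.194 (log2, SE) in 14 of 14 retinas (exact sign-flip test within retina, adjusted p = 0.000651 over the 16 neighbour tests of both genes). The mean of cones lay 0.63 ± 0.253 above that of Müller cells, with cones higher in 9 of 15 retinas, which did not pass (exact sign-flip test, p = 0.0255, adjusted p = 0.0816). The remaining CLUL1 neighbours had adjusted p of 0.919 to 0.982, so that no order among them was measured. Against the highest other class of the same retina, which was cones in 4 retinas, all of the 6.1.2 set, microglia in 5, BCs in 3, and astrocytes and Müller cells in 1 each, rods were higher in 14 of 14 retinas, by a mean log2 difference of 8.39 ± 0.186 (SE). This was 194 to 955 times (exact sign-flip test, p = 0.000122, the smallest 14 retinas can give). Both ends of that range, Mature 5 and Mature 1, rest on 1 CLUL1 UMI in microglia and are near the floor. In the 4 retinas where cones came next, with 95 to 236 CLUL1 UMIs in cones, it was 201 to 577 times.

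A comparison with SAG, which cones also express, set rods above cones, BCs and Müller cells without reference to depth, though by less than in CPM. UMIs were pooled over the retinas of each set, without Senile 1, so no spread between retinas is given. Rods held 4.18 CLUL1 UMIs per SAG UMI in the 6.1.2 libraries and 1.33 in the 7.0.1 libraries. Cones held 0.133 and 0.0372, lower than BCs with 0.76 and 0.507 and Müller cells with 0.849 and 0.426. Within cones SAG was therefore abundant relative to CLUL1, whereas BCs, ACs, RGCs and Müller cells, with few UMIs of either gene, stood in ratios between those of cones and rods.

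Senile 1 stood apart. Its library of 21831405 UMIs held 7 CLUL1 UMIs, which is 0.321 CPM of the library, while the other 14 libraries held 18.9 to 187 CPM. None of the 7 lay in its 2 rods, and none in its 1524 cones, where 3 UMIs would have been 0.53 CPM. The same library held 242 UMIs of PDE6A, 83 of PDE6B, 7 of NR2E3, 91 of GNAT1 and 1219 of SAG. SAG there was 55.8 CPM of the library, inside the range of 44 to 141 CPM of the other 14. Cones also hold SAG, so its level in a whole library does not measure rods alone. In UMIs PDE6A, PDE6B and NR2E3 were lowest in this library, NR2E3 at 7 against 37 to 861 in the others. GNAT1 lay inside the range of the others, 59 to 295 UMIs. Only 3 of its nuclei passed the rod gate with or without another, against 27 to 167 in the others. A lower number of rods and less CLUL1 per rod cannot be told apart in a whole library, and with 2 rods the level per rod was not measured in this retina.

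Between stages CLUL1 in rods did not pass the test in any contrast. Infant rods averaged 12078 ± 6186 CPM (SD, n = 5), mature rods 8638 ± 5205 CPM (n = 5) and senile rods 7448 ± 4171 CPM (n = 4). The counts summed per retina were fitted with edgeR's quasi-likelihood test over 2612 features that passed the filter on low counts. Senile against infant rods differed by -0.79 ± 0.564 (log2 fold change, SE, adjusted p = 0.763), mature against infant by -0.56 ± 0.523 (adjusted p = 0.9) and senile against mature by -0.24 ± 0.557 (adjusted p = 0.999). Of all features tested, 0.459%, 0.268% and 0.0766% were called in these 3 contrasts at an adjusted p under 0.05. In simulated counts of the same rods, without any difference between the 2 sets of libraries, the fit found 91% of features changed 4-fold. Of those changed 2-fold it found 35%. How often it finds a change in a feature that also differs between the sets was not simulated, so these shares do not apply to CLUL1.

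**Figure D2:**
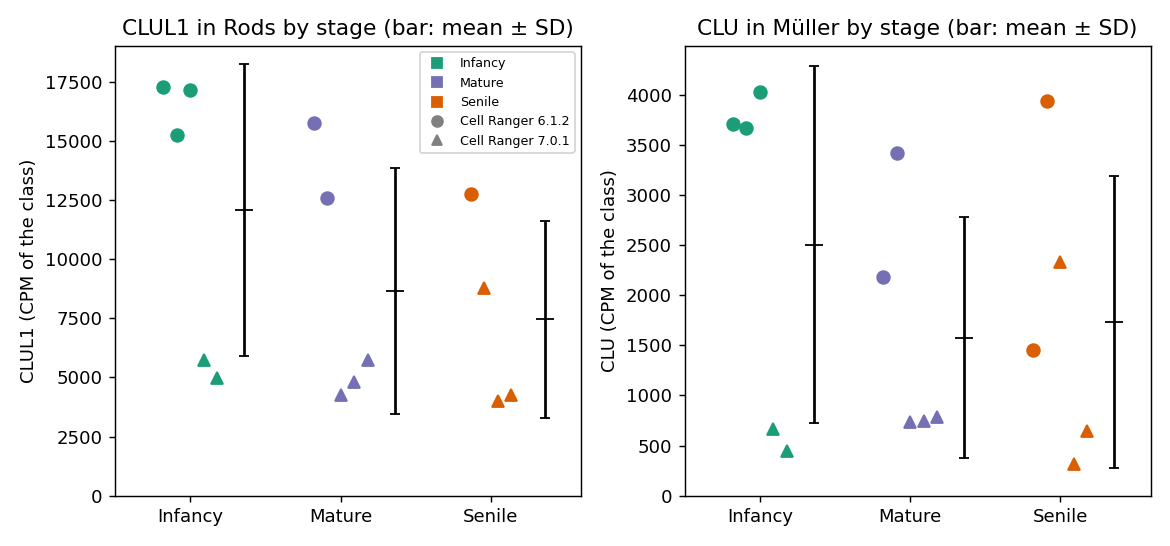
CLUL1 in rods (left) and CLU in Müller cells (right) by stage in CPM, with the mean and SD of each stage. Each retina is 1 point, coloured by stage, and the marker shape gives the Cell Ranger version. Within every stage the 6.1.2 retinas lie at 12589 CPM CLUL1 or higher and the 7.0.1 retinas at 8780 CPM or lower, and the stage means of CLUL1, 12078, 8638 and 7448 CPM, differ by less than the infant SD of 6186 CPM.

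The spread within stages followed the 2 sets of libraries. The 6 retinas of the 6.1.2 set held 15129 ± 2057 CPM (SD) and the 8 of the 7.0.1 set 5325 ± 1544 CPM, without overlap. Within the 6.1.2 set the infant retinas stood at 16553 ± 1147 CPM (n = 3), the mature at 14176 ± 2244 CPM (n = 2) and the single senile one at 12765 CPM. Within the 7.0.1 set the same stages stood at 5366 ± 530 CPM (n = 2), 4946 ± 749 CPM (n = 3) and 5676 ± 2692 CPM (n = 3). Stages of 1 set thus lay closer together than the sets did.

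With the version as a second term of the edgeR model, added after these values were seen, the stage estimates became smaller and more precise. Senile against infant rods differed by -0.17 ± 0.203 (log2, SE, adjusted p = 0.88), mature against infant by -0.26 ± 0.183 (adjusted p = 0.82) and senile against mature by 0.09 ± 0.194 (adjusted p = 0.973), with 0.727%, 0.536% and 0.115% of features called. The version itself was tied to a CLUL1 level lower by -1.50 ± 0.162 in the 7.0.1 libraries (edgeR, adjusted p = 1.18e-05), in a contrast where 4.52% of features were called, 33 higher and 85 lower. An exact permutation of the 14 retinas gave a mean difference of -1.54 (log2 CPM, p = 0.000333), and p = 0.0025 within stages. With the sex drawn in the study as a further term the estimate was -1.15 ± 0.247 and no longer passed (edgeR, adjusted p = 0.0823). That fit called 0.0766% of features in this contrast, so most features called without sex were not called with it. Rods of the 6.1.2 set were also shallower, with median depths of 890 to 1701 UMIs against 1668 to 5412, and the part of depth in the difference was not tested beyond the thinned counts given further on.

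**Figure D3:**
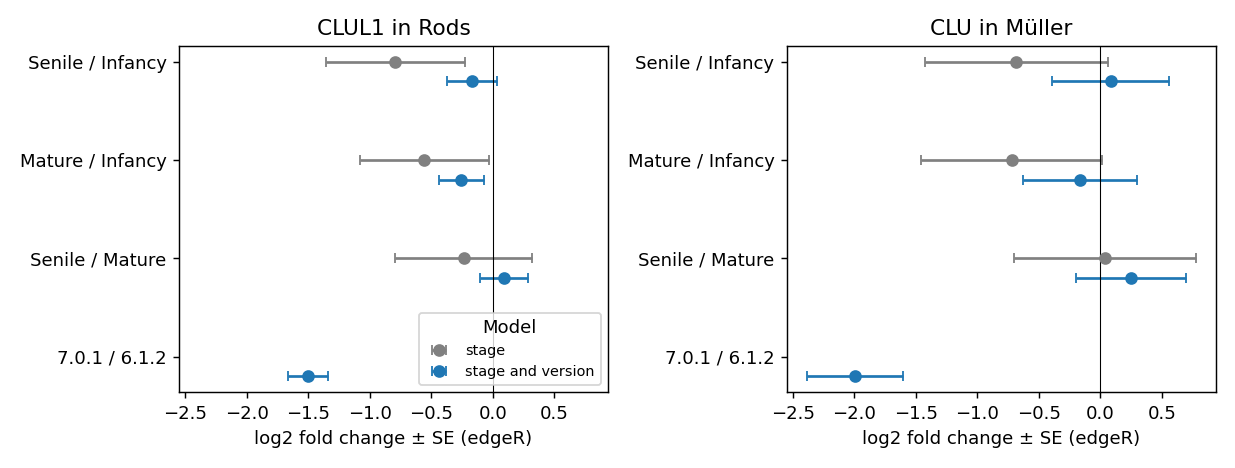
Log2 fold changes with SE from edgeR for CLUL1 in rods (left) and CLU in Müller cells (right), for the 3 stage contrasts in the model of stage and in the model of stage and version, and for version 7.0.1 against 6.1.2. The stage estimates of both genes lie between -0.79 and 0.25, and the version estimates lie at -1.50 for CLUL1 and -1.996 for CLU.

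Of the rod genes outside the gate that could be tested, all but ROM1 differed less between the sets than CLUL1. SAG averaged 3629 ± 429 CPM in the rods of the 6.1.2 libraries and 3757 ± 1102 CPM in those of the 7.0.1 libraries, a fitted difference of 0.00 ± 0.164 (log2, SE). Of 17 rod genes outside the gate, 12 could be tested, and 1 passed in edgeR, in a contrast that called 4.52% of all features in rods. That was ROM1, a protein of the disc rims, at 688 ± 132 CPM against 241 ± 116 CPM (-1.61 ± 0.22, adjusted p = 0.000194). The remaining 11 lay between -0.39 and 0.44, with GNB1, a transducin subunit and after SAG the most abundant, at 0.44 ± 0.144 (edgeR, adjusted p = 0.0857). NR2E3, a gate gene, ran the other way, at 393 ± 89.4 CPM against 1054 ± 371 CPM, which is given without a test.

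**Figure D4:**
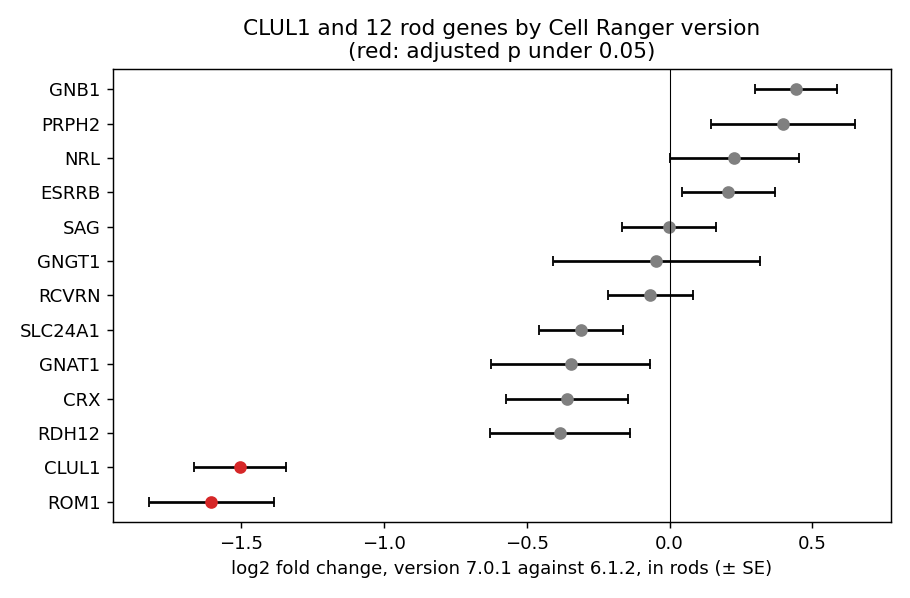
Log2 fold changes with SE in rods for version 7.0.1 against 6.1.2, from the edgeR model of stage and version. They are drawn for CLUL1 and the 12 tested rod genes outside the gate. CLUL1 and ROM1 are lower in the 7.0.1 libraries (red, adjusted p under 0.05), and the other genes, which did not pass, are grey.

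On the scale of UMIs per nucleus senile rods were the lowest. Infant rods of retinas 1 to 5 held 28.4, 32.2, 30.3, 23.6 and 21.8 CLUL1 UMIs each, and mature rods 30.6, 23.0, 17.1, 16.6 and 33.6. Senile rods of retinas 2 to 5 held 14.9, 20.0, 7.88 and 14.2, so the senile and infant retinas did not overlap. The share of all features in rods that also did not overlap on this scale was not counted. The mean difference of CLUL1 was -0.997 on the log2 scale (exact permutation, p = 0.00794, the smallest that 4 against 5 retinas allow), and -0.90 within versions (p = 0.025). Over the 33 stage comparisons of single values the adjusted p was 0.262 (exact permutation). The median depths of these senile rods were 890, 2115, 1668 and 3004 UMIs and those of infant rods 1524, 1654, 1486, 4019 and 4030 UMIs, so the stages overlapped in depth over all retinas. Within each set of libraries all senile rods were shallower than the infant ones, and the part of depth in the difference was not tested on this scale. In CPM the difference was -0.67 and did not pass (exact permutation, p = 0.27), and within versions it was -0.17 (p = 0.65).

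Both scales that take depth out left no difference between stages past the test. With every rod thinned to 1000 UMIs and shallower rods left out, infant retinas 1 to 5 held 18.5, 17.8, 18.7, 5.96 and 5.3 CLUL1 UMIs per rod. Mature retinas held 17.2, 14.3, 4.65, 5.1 and 6.51, and senile retinas 3 to 5 held 8.65, 4.43 and 4.23, Senile 2 having too few rods of that depth. Senile minus infant was -1.07 on the log2 scale (exact permutation, p = 0.161) and -0.04 within versions (p = 1, 10 relabellings). The 6.1.2 and 7.0.1 retinas still did not overlap on this scale (-1.66, exact permutation p = 0.000777). The thinned share of rods with a CLUL1 UMI was 93.0% to 98.1% in infant, 88.0% to 100% in mature and 89.7% to 95.2% in senile retinas, senile minus infant being -4.1 percentage points (exact permutation, p = 0.125) and -2.32 points within versions (p = 0.4). Without Senile 4 it was -5.89 points (exact permutation, unadjusted p = 0.0476, the smallest that the remaining retinas allow). All 3 senile retinas left after thinning were 7.0.1 libraries, and the 7.0.1 retinas stood -5.39 points from the 6.1.2 ones (exact permutation, p = 0.00855).

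Per UMI of the rod genes outside the gate, CLUL1 stood at 2.06, 2.16, 2.2, 0.993 and 0.546 in infant retinas 1 to 5. In mature retinas it stood at 1.93, 1.71, 0.54, 0.855 and 0.66, and in senile retinas 2 to 5 at 1.82, 1.18, 0.461 and 0.667. Each stage held retinas on both sides of 1. SAG made up 49.0% of the rod-gene UMIs of this scale, GNB1 11.5%, ESRRB 11.1% and ROM1 4.2%, so the scale rests largely on SAG. Senile minus infant was -0.63 on the log2 scale (exact permutation, p = 0.325) and -0.13 within versions (p = 0.675), and -0.66 with ROM1 left out of the reference (p = 0.357).

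**Figure D5:**
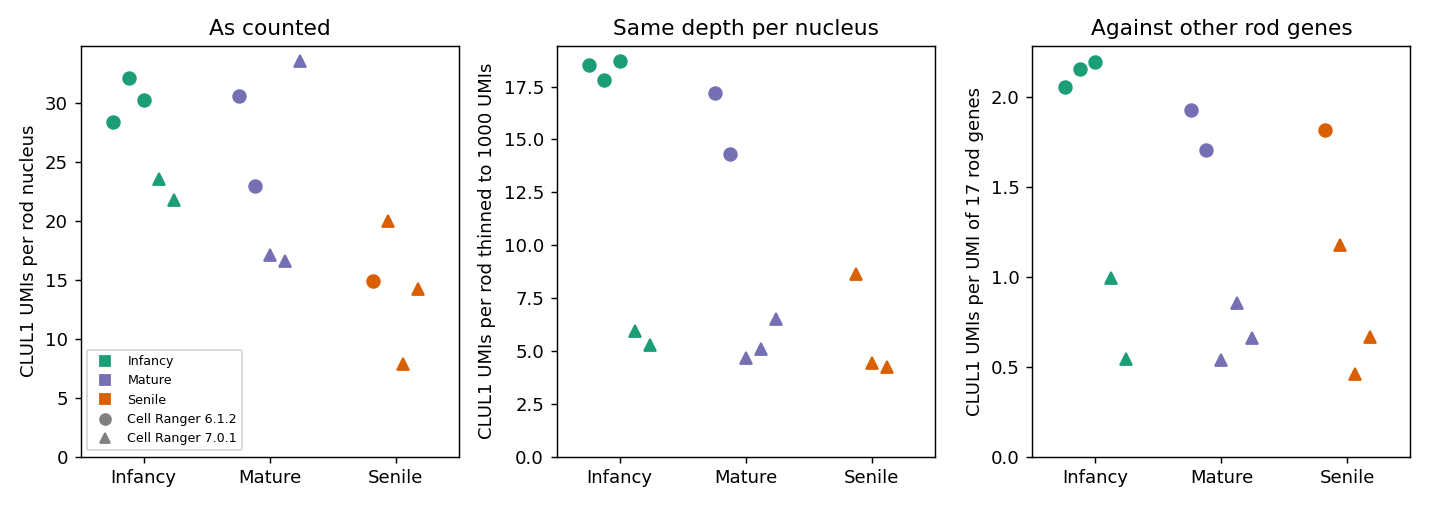
CLUL1 in rods of each retina by stage on 3 scales: UMIs per nucleus, UMIs per nucleus after thinning to 1000 UMIs, and UMIs per UMI of 17 rod genes outside the gate. SAG makes up 49.0% of the rod-gene UMIs of the last scale. Points are coloured by stage, and the marker shape gives the Cell Ranger version. Senile retinas lie below infant ones on the first scale (7.88 to 20.0 against 21.8 to 32.2), and on the other scales the retinas part by version instead.

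CLU followed a different map, with Müller cells and astrocytes on top and, outside rods, a higher mean level than CLUL1 in each compared class. In Müller cells, the radial glia of the retina, the level in infant retinas 1 to 5 was 3705, 3670, 4029, 666 and 450 CPM. In mature retinas 1 to 5 it was 2185, 3419, 732, 749 and 785 CPM, and in senile retinas 1 to 5 it was 1452, 3938, 2332, 316 and 641 CPM. The mean was 1938 ± 1451 CPM (SD, n = 15), and all stages overlapped. Of 4963 Müller cells 88.8% held a CLU UMI, with a median of 3, and 38.9% held 5 or more. The rank of CLU among features of Müller cells ran from 5 to 476 between retinas, with a median of 38.

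Astrocytes, which lie along the ganglion cell axons, came next at 982 ± 616 CPM (SD, n = 15). Infant astrocytes held 1837, 1914, 1734, 437 and 252 CPM, mature ones 1435, 1249, 438, 565 and 420 CPM, and senile ones 1191, 1651, 840, 296 and 465 CPM. A CLU UMI was found in 79.8% of the 1403 astrocytes. Müller cells exceeded the astrocytes of the same retina in 15 of 15 retinas, by 0.82 ± 0.108 (log2, SE, exact sign-flip test, adjusted p = 0.000488). Astrocytes exceeded ACs in 15 of 15 retinas by 2.37 ± 0.107 (exact sign-flip test, adjusted p = 0.000488).

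Below the macroglia CLU averaged 179 ± 97.4 CPM (SD) in ACs, 162 ± 100 in RGCs, 161 ± 74.2 in BCs and 133 ± 63.3 in microglia. In the 6.1.2 and the 7.0.1 libraries ACs stood at 256 ± 71.1 and 112 ± 59.8 CPM, and RGCs at 238 ± 97.2 and 96.0 ± 34.1 CPM. It averaged 99.5 ± 42.7 CPM in rods, 91.8 ± 35.1 in HCs and 75.4 ± 49.1 in cones. ACs, BCs, RGCs and microglia did not differ from their neighbours in this order beyond their spread (exact sign-flip tests, adjusted p = 0.756 to 0.982). Microglia exceeded rods by 0.45 ± 0.135 in 11 of 14 retinas (exact sign-flip test, adjusted p = 0.021), and rods, HCs and cones did not part past the threshold (adjusted p = 0.919 and 0.126). The share of nuclei with a CLU UMI was 56.5% in RGCs, 20.6% in rods and 20.5% in cones. How much of these lower levels was free RNA was not tested. Of 103719 CLU UMIs 21.4% lay in Müller cells, 3.34% in astrocytes, 7.13% in ACs, 5.89% in RGCs and 36.5% in nuclei without a gate.

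Rods and Müller cells thus held the 2 genes in opposite proportions. Rods averaged 9527 CPM of CLUL1 beside 99.5 CPM of CLU, and Müller cells averaged 9.0 CPM of CLUL1 beside 1938 CPM of CLU. These are UMI levels of 3′ libraries, which count molecules and are not divided by transcript length.

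CLU in Müller cells did not pass the test between stages either. Infant cells averaged 2504 ± 1784 CPM (SD, n = 5), mature 1574 ± 1203 CPM (n = 5) and senile 1736 ± 1458 CPM (n = 5). In edgeR over 9323 features senile against infant was -0.68 ± 0.741 (log2, SE, adjusted p = 0.999), mature against infant -0.72 ± 0.737 (adjusted p = 0.869) and senile against mature 0.04 ± 0.738 (adjusted p = 1). The first 2 contrasts called 0.729% and 0.526% of features, and the last called 0 of 9323 in edgeR, which is 0%, against 13 called by DESeq2. In edgeR the unadjusted p of 533 features was under 0.05 there. With the version as a term the estimates were 0.08 ± 0.474 (adjusted p = 1), -0.17 ± 0.461 (adjusted p = 0.984) and 0.25 ± 0.446 (adjusted p = 0.929), and 0.88%, 0.762% and 0.0322% of features were called. Senile 4 held CLU in 51.2% of its Müller cells, against 83.5% to 99.2% in the other 14 retinas.

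Müller cells of the 7.0.1 libraries held less CLU. The 7 retinas of the 6.1.2 set averaged 3200 ± 987 CPM (SD) and the 8 of the 7.0.1 set 834 ± 626 CPM, with Senile 1 and Mature 1 of the former and Senile 3 of the latter inside the other's range. The version term was -1.996 ± 0.393 (log2, SE, edgeR, adjusted p = 0.00408), in a contrast that called 17.4% of the Müller features, 723 higher and 900 lower, and an exact permutation gave a mean difference of -2.10 (p = 0.000622). With sex as a further term it was -1.003 ± 0.498 (edgeR, adjusted p = 0.544). Within the 6.1.2 set infant, mature and senile Müller cells stood at 3801 ± 198 (n = 3), 2802 ± 873 (n = 2) and 2695 ± 1758 CPM (n = 2). Within the 7.0.1 set they stood at 558 ± 153 (n = 2), 755 ± 27.1 (n = 3) and 1096 ± 1082 CPM (n = 3). The last mean rests on Senile 3, at 2332 CPM, and without it was 478 ± 230 CPM (n = 2), below the infant mean.

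The version estimate of CLU was not one value for all classes. It was -1.80 ± 0.251 in astrocytes (edgeR, adjusted p = 0.000675), where the sets did not overlap at 1573 ± 285 and 464 ± 181 CPM (exact permutation, p = 0.000311). It was -1.28 ± 0.346 in ACs (adjusted p = 0.016) and -1.15 ± 0.265 in RGCs (adjusted p = 0.00659), both in edgeR. In BCs it was -0.70 ± 0.397 (adjusted p = 0.255), in rods -0.17 ± 0.438 (adjusted p = 0.899) and in cones 0.61 ± 0.394 (adjusted p = 0.288), and the difference between classes was not itself tested. Such differences were common, as the version contrast called 6.53% of features in astrocytes, 26.2% in ACs, 22.9% in RGCs, 17.4% in BCs and 22.6% in cones. For CLUL1 in cones the estimate was -1.96 ± 0.725 (edgeR, adjusted p = 0.0664).

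In RGCs, the output neurons of the retina, CLU had its lowest unadjusted p of the senile against infant contrasts, at -1.11 ± 0.457 (edgeR quasi-likelihood test, adjusted p = 0.769). With the version as a term it was -0.70 ± 0.319 (edgeR, adjusted p = 0.669). These contrasts called 0.906% and 1.11% of the features tested in RGCs.

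Features most like CLUL1 across the retina were other rod RNAs. Over 134 sums of a class in a retina, which share libraries and depth, the 8 features of 12220 with the highest Pearson r of log2(CPM + 1) had r of 0.895 to 0.907, and all were highest in rods. They were LINC-CADM1-9, TYMS-AS-1, TRBV3-1, PRSS58-AS-1, LINC-WNT4-2, LINC-HNRNPA1-25, LINC-PRRC1-3 and LINC-RPL7-122, most of them annotated as noncoding or antisense. TYMS-AS-1 is the most abundant, at 1846 CPM in rods, and it lies beside CLUL1 in the feature order of the files. It stood at 2392 ± 257 CPM in rods of the 6.1.2 libraries and 1436 ± 452 CPM in those of the 7.0.1 libraries. Whether its reads and those of CLUL1 or of TYMS, at 61.4 CPM in rods, were told apart by strand is not given in the sources used here, so its level is uncertain. Among the protein genes beside CLUL1, COLEC12 stood at 215 CPM in rods, ENOSF1 at 9.1 CPM and CETN1 is listed at 0.

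Features most like CLU were genes of Müller cells and astrocytes. The 8 with the highest r, 0.8 to 0.83, were SBSPON, LINC-RHBG-2, FRZB, EYA4-AS-1, SELENOP, HEPACAM, AQP4 and GPR37L1. AQP4, the water channel of glia, stood at 233 CPM in Müller cells, and SELENOP, the selenium carrier, at 2274 CPM in astrocytes. CLUL1 and CLU had an r of -0.157 with each other over the same sums.

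The partners of clusterin were taken list by list. Of 6 receptors 5 were among the features, 2 could be tested in rods and 4 in Müller cells, and 0 passed in any stage contrast in edgeR, with or without the version, or in DESeq2. Over all features the edgeR stage contrasts called 0.0766% to 0.727% in rods and 0% to 0.88% in Müller cells. The same shares stand beside the lists that follow, so 0 in so short a list says little about its genes. At an unadjusted p under 0.05 the edgeR counts were 0 in rods, and in Müller cells 1 in mature against infant under both models, which was LRP2 (0.71 ± 0.332 and 0.76 ± 0.328, named after its value was seen). Over all Müller features 7.78% and 9.2% were under that p in these fits. Over all features in rods it was 6.05% to 10.1% in the stage contrasts of both models. The most abundant receptors were LRP8, the apolipoprotein E receptor 2, at 246 CPM and LRP2 (megalin) at 235 CPM in rods, and LRP1 at 93.1 CPM and LRP8 at 78.6 CPM in Müller cells. In Müller cells, where the version contrast called 17.4% of features, LRP8 and VLDLR were lower in the 7.0.1 libraries, by -0.85 ± 0.24 (edgeR, adjusted p = 0.0229) and -1.18 ± 0.367 (edgeR, adjusted p = 0.0336).

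Among 7 other extracellular chaperones and apolipoproteins only CST3 (cystatin C, a secreted protease inhibitor) was abundant enough to test, at 2625 CPM in rods and 346 CPM in Müller cells. It passed in 0 stage contrasts in edgeR and DESeq2, with an unadjusted p under 0.05 in senile against mature in both classes in edgeR with the version as a term, where 8.23% of all features in rods and 8.97% in Müller cells were under that p. It was lower in the 7.0.1 libraries by -4.34 ± 0.663 in rods (edgeR, adjusted p = 0.00369) and by -1.79 ± 0.511 in Müller cells (edgeR, adjusted p = 0.0303). DESeq2 with the version as a term estimated -4.33 in rods and gave no p there. Its means were 10806 ± 3597 and 846 ± 1302 CPM in the rods of the 2 sets, and 745 ± 222 and 267 ± 258 CPM in their Müller cells. APOA1 and A2M are listed at 0 in both classes, and APOE at 0 in rods.

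Of 13 genes of terminal complement and its inhibitors, the target of clusterin outside the cell, 0 were abundant enough to test in rods or Müller cells. The most abundant was C5, at 15.6 and 9.25 CPM, and the inhibitor CD55 stood at 4.17 and 6.37 CPM. Among genes of survival and apoptosis, BCL2, an inhibitor of apoptosis, stood at 154 CPM in Müller cells, where its relative BCL2L1 and the kinase AKT1 could be tested as well. None of these 3 passed a stage contrast in edgeR or DESeq2, and 1 had an unadjusted p under 0.05, BCL2L1 in senile against mature (-0.55 ± 0.25, edgeR, adjusted p = 0.866), named after its value was seen. Over all Müller features 5.72% were under that p in this contrast in edgeR, and 8.97% with the version as a term.

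The 12 testable rod genes outside the gate gave the same count, with 0 passing in any stage contrast in rods. At an unadjusted p under 0.05, edgeR had 2, 0 and 2 of them in senile against infant, mature against infant and senile against mature, and 3, 0 and 4 with the version as a term. Over all features the shares under that p were 9.19%, 7.66% and 6.05%, and 10.1%, 8.35% and 8.23% with the version. Their median log2 fold change in senile against infant was -0.49, beside -0.02 over all 2612 features, and with the version -0.22. SAG and GNB1 were the most abundant. SAG differed in senile against infant by -0.01 ± 0.191 (edgeR, adjusted p = 0.999), and GNB1 by 0.03 ± 0.211 (edgeR, adjusted p = 0.999). SLC24A1, the rod sodium and calcium exchanger, had the lowest p in senile against infant, at -0.85 ± 0.21 (edgeR, adjusted p = 0.098), and was named after its value was seen.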

How the data were processed

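Retinal nuclei were captured with droplet 3′ chemistry and counted by the authors with Cell Ranger, and the deposited matrices hold raw UMI counts per feature and barcode, 1 library per retina. The matrix headers name versions 6.1.2 and 7.0.1, and the submitters' processing notes name 5.0.1 and 7.0.1 for the same 2 sets. Whether intronic reads were counted, and whether by strand, is not given in the sources used here. Library totals ran from 13429873 to 58734300 UMIs, and intervals and limits from UMI counts cover counting error only.

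As in the study, a nucleus was kept when its gene count lay above 200 and below 6000 and its mitochondrial share was below 5%. Classes were gated by detected markers, with at least 2 of 4 for rods, and for the other classes 4 (cones, Müller cells), 3 (BCs, RGCs, microglia, retinal pigment epithelium, vascular cells) or 2 (HCs, ACs, astrocytes, oligodendrocytes). These minimums were set from marker detection alone. Retinal pigment epithelium, vascular cells and oligodendrocytes, with 40, 47 and 2 nuclei, were too few to compare. No doublet caller was run, and nuclei that passed more than 1 gate were set aside instead. Y-linked and other sex-linked genes were not examined, and the sex of each animal was taken from the study's drawing of the design, which is in doubt.

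UMIs were summed per retina and class and fitted over all features that passed filterByExpr with edgeR 4.0.16 (TMM, robust quasi-likelihood test, all 3 stages in 1 fit, R 4.3.3), with Benjamini-Hochberg adjustment over all features tested. DESeq2 1.42.0 was an alternative. Single values per retina used log2(CPM + 1) and 2-sided exact permutation or sign-flip tests (scipy 1.17.1 and numpy 2.4.6, on tables read with pandas 2.3.3 in Python 3.11.15). The model with the Cell Ranger version and the permutations within versions were chosen after seeing the data. The fits were tested on simulated counts with 200 changed features and no difference between the 2 sets of libraries. In rods they found 91% of features changed 4-fold and 35% of those changed 2-fold, with 2 false calls, and in Müller cells 87% and 48%, with 10.

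The named features were CLUL1, CLU, the 8 features most like each (mean of 20 CPM or more in at least 1 class), and from each list the members past an adjusted p of 0.05, at most 4, or the 2 most abundant. The genes, gates and lists were chosen with earlier results of these data known. Some listed genes, and 1 alternative that rests on one, are not reported here. Alternatives were other scaling, filters, gates, pseudocounts, thinning, a replicate block, sex, DESeq2 and leaving out each retina.

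Replicate numbers were checked as pairs. Same-numbered rods of different stages had correlations of -0.143 to 0.268 in their deviations from the stage means, 6 of 13 over 0.1, and Müller cells had -0.382 to 0.683, 12 of 15 over 0.1. Same-numbered retinas mostly share a version, and pairs of retinas correlated with a median of 0.276 within a version and -0.251 across versions in Müller cells. Not every pair was over 0.1 and no label ties the numbers, so they were not taken as pairs.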

Additional observations from a re-analysis of the deposited data

Results flagged for a closer look

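The share of Müller cells with a CLU UMI in Senile 4 was 51.2%, far below the other 4 senile retinas, at 85.5%, 92.5%, 88.1% and 85.5%. Its gap to the nearest was 0.831 of the range of the 5, past Dixon's critical value, and it was 1 of 27 groups examined, of which chance would single out about 1 in 20. The level of CLU in these Müller cells was 316 CPM, also the lowest of the 15 retinas, at a median depth of 2036 UMIs. In the astrocytes of the same retina 45.9% held a CLU UMI, against 61.8% to 96.3% in the other 14.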

How the results depend on the processing

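No edgeR or DESeq2 stage contrast of CLUL1 in rods or CLU in Müller cells passed under any alternative run. The thinned share of rods with CLUL1 had an unadjusted p under 0.05 without Senile 4 (exact permutation, p = 0.0476, the smallest that the remaining retinas allow). CLUL1 in rods stayed above the highest other class by 6.47 (nuclei of other gates kept) to 8.62 (stricter gate), on the log2 scale. Signs of estimates near 0 did change. CLUL1 in senile against mature rods was 0.092 with the version as a term, and in that model -0.23 without the filter on low counts. CLU in senile against infant Müller cells was 0.083 with the version, and in that model -0.053 without the filter, -0.024 thinned, -0.19 with nuclei of other gates, -0.055 with the stricter gate and -0.32 with sex. CLU in senile against mature was -0.13 without the filter, -0.21 with the replicate block, -0.22 with sex, -0.33 with the stricter gate, -0.063 with nuclei of other gates and -0.21 thinned. In the model with the version it was -0.063 with nuclei of other gates and -0.073 with sex. With sex the version estimate was -1.15 for CLUL1 (edgeR, adjusted p = 0.0823), in a contrast that called 0.0766% of the features in rods. It was -1.003 for CLU (edgeR, adjusted p = 0.544). The cause was not tested.

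Leaving out each retina gave ranges, first by stage and then with the version. CLUL1 senile against infant ran from -1.18 to -0.58 and -0.47 to -0.03, mature against infant from -0.86 to -0.36 and -0.32 to -0.19, and senile against mature from -0.64 to 0.066 (without Mature 1) and -0.25 (without Senile 3) to 0.20. CLU ran from -1.22 to -0.40 and -0.52 to 0.40, from -1.22 to -0.46 and -0.37 to -0.02, and from -0.50 to 0.55 and -0.49 to 0.49. The version estimate ran from -1.61 to -1.42 for CLUL1 and from -2.35 to -1.82 for CLU. Rods against the highest other class ran from 8.29 to 8.46, CLU in Müller cells against astrocytes from 0.77 to 0.87, the thinned share from -5.89 to -3.14 points and the ratio to rod genes from -0.97 to -0.31.

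Numbers 1 and 2 are 6.1.2 libraries and numbers 4 and 5 are 7.0.1 libraries in every stage, so the block also carries most of the version and, as numbers 1 to 3 are drawn female and 4 and 5 male, all of the drawn sex. Rods were closest to their own number in 6 of 14 and Müller cells in 4 of 15. The replicate block gave CLUL1 -0.59, -0.53 and -0.06, and CLU -0.67, -0.46 and -0.21, for the 3 contrasts, with 17, 17 and 1 features called in rods and 77, 56 and 6 in Müller cells. A minimum of 5 or 20 nuclei kept the same retinas. Rods were few, at 22 to 120 in the retinas used, and the fit found 35% of the features simulated with a 2-fold change. These had no difference between the 2 sets of libraries, so the reach for CLUL1 itself was not measured.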
